A study of Mus musculus with 9 samples.

Results

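Pax6, Six3, Sox2, Foxe3, Pitx3, Maf, Sox1, Prox1 and Hsf4 are transcription factors on which lens formation or lens fiber differentiation depends. Each was taken by its symbol from a table of RNA values of mouse lenses, where the 9 factors make up 9 of 15803 different symbols in 22013 entries, 1 entry for each. The lenses were taken at E16.5 from control embryos (Mafg+/-:Mafk+/-), compound KO embryos (Mafg-/-:Mafk+/-) and double KO embryos (Mafg-/-:Mafk-/-), with 3 libraries of each genotype and RNA of 8 pooled lenses in each library. All embryos carried germline null alleles, so that every cell of the embryo had the genotype, and the controls were themselves heterozygous for Mafg and Mafk. The mice were kept on an ICR background, the labels give no wild type lenses, and whether the pools of a genotype came from separate litters is not given in the sources used here. P-values therefore measure the spread between these libraries.

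Mafg and Mafk encode small Maf proteins, which bind DNA as dimers with each other or with other basic leucine zipper proteins and have no activation domain of their own. Maf, also called c-Maf, is a large member of the same family, carries an activation domain and drives crystallin genes in lens fibers. Pax6 and Six3 specify the eye field and the lens placode, and Sox2 acts with Pax6 at the start of crystallin expression. Foxe3 and Pitx3 hold the lens vesicle and the anterior epithelium in their state, while Sox1, Prox1 and Hsf4 act as epithelial cells turn into fibers, Sox1 at gamma crystallin genes, Prox1 in fiber elongation and Hsf4 in the late fiber program and in denucleation. The question addressed here was whether the RNA of these factors differed between lenses that lack small Maf alleles.

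Values are in normalized CPM, library-scaled reads (CPM) that the authors adjusted further for the composition of each library, and the read depth of the libraries is unknown. The targeted genes were in place: Mafg read 112.9 to 134.5 in control, 10.1 to 24.1 in compound KO and 21.2 to 26.2 in double KO libraries, and Mafk 5.2 to 6.3, 4.3 to 5.3 and 0.0 to 0.6. In double KO relative to control lenses Mafg had a log2 fold change of -2.31 (adjusted p = 0.0017 by limma) and Mafk of -2.39 (adjusted p = 0.0166), and the only other called gene of the lists used here was Myod1, a skeletal muscle marker (3.01, adjusted p = 0.00386). In compound KO lenses even the deleted Mafg was not called with all libraries (-2.75, adjusted p = 0.188 by limma), but it was without replicate 1 (-2.39, adjusted p = 0.0174). The lens fiber markers were present throughout, with a summed level of 38426 to 124743 over 12 listed genes. In such sums the genes with the highest values weigh most, so a lower sum need not hold for each gene of the list. Compound KO replicate 1 stood apart from the other 8 libraries. Its fiber sum was the lowest, and its sum of 9 neural retina markers was 482.1 against 26.2 to 165.4 in the others, its sum of 10 periocular mesenchyme markers was 2238 against 15.8 to 222.2, and its total was 728036 against 977149 to 1131184. Among genes with a mean of at least 1, 28.7% were lower and 33.8% were higher in this library than in every other. All 7 skeletal muscle markers tested lay above control in every double KO library (median log2 fold change 1.68), against 7.78% of all genes. So did 6 of 7 erythroid markers (1.03). The 7 muscle markers also lay above control in every compound KO library (median 2.48), against 12.2% of all genes, but 0 of 6 erythroid markers did. Double KO replicate 1 had the lowest fiber sum after compound KO replicate 1 (75753), with mesenchyme and muscle sums of 222.2 and 82.2, against 15.8 to 49.1 and 3.1 to 6.1 in control. Compound KO replicates 2 and 3 also differed from every control library, with fiber sums of 97769 and 101414 against 106666 to 124743. Their mesenchyme sums were 146.8 and 58.5 and their muscle sums 34.6 and 21.3, above the control ranges just given. Retinal pigment epithelium sums, 56.6 and 41.6, did not both lie outside the 30.6 to 45.1 of control. Comparisons of the factors with compound KO lenses are given with and without compound KO replicate 1. Leaving that library out does not make the tissue content of the groups equal. In such bulk RNA fewer cells of a type and less RNA per cell cannot be told apart.

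The factors covered a wide range of levels in control lenses. Divided by the length of all annotated exons in kilobases, Foxe3 had the highest level, 142 ± 5.13 normalized CPM per kb (SD, n = 3), and Maf the next, 118 ± 9.61. Sox1 followed with 53.1 ± 4.66 and Pitx3 with 30.2 ± 2.36. Prox1 with 28.1 ± 2.29 could not be placed below Pitx3, as the control libraries of these neighbours overlapped. Below them came Hsf4 at 19.1 ± 5.06 and Six3 at 13.7 ± 0.439, whose libraries did not overlap. Sox2 at 7.13 ± 1.14 and Pax6 at 6.42 ± 1.04 were lowest and overlapped each other. With the longest transcript as the length, Maf (172) stood above Foxe3 (142), Six3 (20.8) was level with Hsf4 (20.4) and Pax6 was at 12.1, above Sox2 at 7.13, so the order of these pairs depends on the transcripts that are used, which are not known here. Hsf4 was the most variable factor among control libraries, with a coefficient of variation of 26.5%, and Six3 the least, with 3.2%.

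Promoter sequences of the factors are shown because small Mafs and Maf act through short DNA elements. Of the 9 factors, 7 had promoters in the RefSeq table, 9 promoters in all, given there for GRCm38.p6 and each found once in GRCm39. Each promoter held 250 bases before and 50 bases after the transcription start and was searched on both strands for TGCTGA, the outer letters of the Maf recognition element, for TGACNNNGC, the core of the antioxidant response element bound by small Maf dimers with Nrf2, for GAANNTTC, a heat shock element core, and for the Sox sites ACAAAG and, as another form bound by Sox proteins, ACAATG. The Maf letters TGCTGA were found for 1 of the 7 factors (Sox2), against 19.5% of 32544 mouse promoters of the same length. TGACNNNGC was found for 3 (Pax6, Sox1 and Six3), against 12.4% of all promoters, and ACAAAG for 3 (Pax6, Sox2 and Prox1), against 18.7%. Neither GAANNTTC (7.89% of all promoters) nor ACAATG (12.4%) was found for any of the 7. These shares are of single promoters, whereas Pax6 and Prox1 had more than 1 promoter searched and so more than 1 chance of a match. Counts of factors are thus not on the same footing as the shares. The Pax6 promoter within the gene held 3 of the TGACNNNGC matches, at -187, -162 (reverse strand) and -148 bases from the start, the last 2 on either side of an ACAAAG at -154 that overlaps the reverse match. A match describes the letters only. The 250 bases before the start are printed for this promoter, for Sox2 and Sox1 with matches, and for Pitx3 and Foxe3, whose values varied together with those of Sox1 and which held none, with matches in capitals.
Pax6, chr2:105512558-105512807 (GRCm39, plus strand): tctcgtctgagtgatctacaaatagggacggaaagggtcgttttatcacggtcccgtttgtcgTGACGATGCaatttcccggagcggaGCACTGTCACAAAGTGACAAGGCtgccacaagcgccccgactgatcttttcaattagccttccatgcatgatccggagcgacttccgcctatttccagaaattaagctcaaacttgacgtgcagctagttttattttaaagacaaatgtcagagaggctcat
Sox2, chr3:34703894-34704143 (GRCm39, plus strand): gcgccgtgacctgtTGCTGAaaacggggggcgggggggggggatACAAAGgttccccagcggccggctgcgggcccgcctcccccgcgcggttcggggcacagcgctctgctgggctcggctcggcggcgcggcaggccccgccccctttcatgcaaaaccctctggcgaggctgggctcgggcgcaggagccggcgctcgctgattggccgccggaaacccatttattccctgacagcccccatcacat
Sox1, chr8:12445269-12445518 (GRCm39, plus strand): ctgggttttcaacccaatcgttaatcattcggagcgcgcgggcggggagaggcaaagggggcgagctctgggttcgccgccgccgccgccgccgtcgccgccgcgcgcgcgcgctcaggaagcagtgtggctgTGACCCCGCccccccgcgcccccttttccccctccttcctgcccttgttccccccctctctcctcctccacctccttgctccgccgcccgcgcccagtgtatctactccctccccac
Pitx3, chr19:46136765-46137014 (GRCm39, minus strand): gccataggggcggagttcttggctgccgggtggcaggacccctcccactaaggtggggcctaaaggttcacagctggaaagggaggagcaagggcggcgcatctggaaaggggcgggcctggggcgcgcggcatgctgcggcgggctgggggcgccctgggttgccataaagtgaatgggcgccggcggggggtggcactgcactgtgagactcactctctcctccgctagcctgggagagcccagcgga
Foxe3, chr4:114783265-114783514 (GRCm39, minus strand): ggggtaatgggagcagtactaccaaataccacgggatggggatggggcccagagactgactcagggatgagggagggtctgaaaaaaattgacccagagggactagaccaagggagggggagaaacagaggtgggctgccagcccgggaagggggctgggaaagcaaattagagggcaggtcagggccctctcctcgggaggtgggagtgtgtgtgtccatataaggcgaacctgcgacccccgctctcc

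Between double KO and control lenses, none of the 9 factors passed the test. A gene was called where limma gave an adjusted p of 0.05 or less, after Benjamini-Hochberg adjustment over all 14122 genes tested, together with a 1.5-fold difference or more, and this held for 0 of the 9 factors and 0.361% of all genes. At an unadjusted p of at most 0.05 alone there were 2 factors, Pitx3 and Prox1, against 9.97% of all genes. The median log2 fold change over the 9 factors was -0.07, beside 0.01 over all genes, and adjusted p-values ran from 0.479 to 0.953. With 3 libraries against 3, an exact permutation test cannot give a two-sided p below 0.1.

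**Figure D1:**
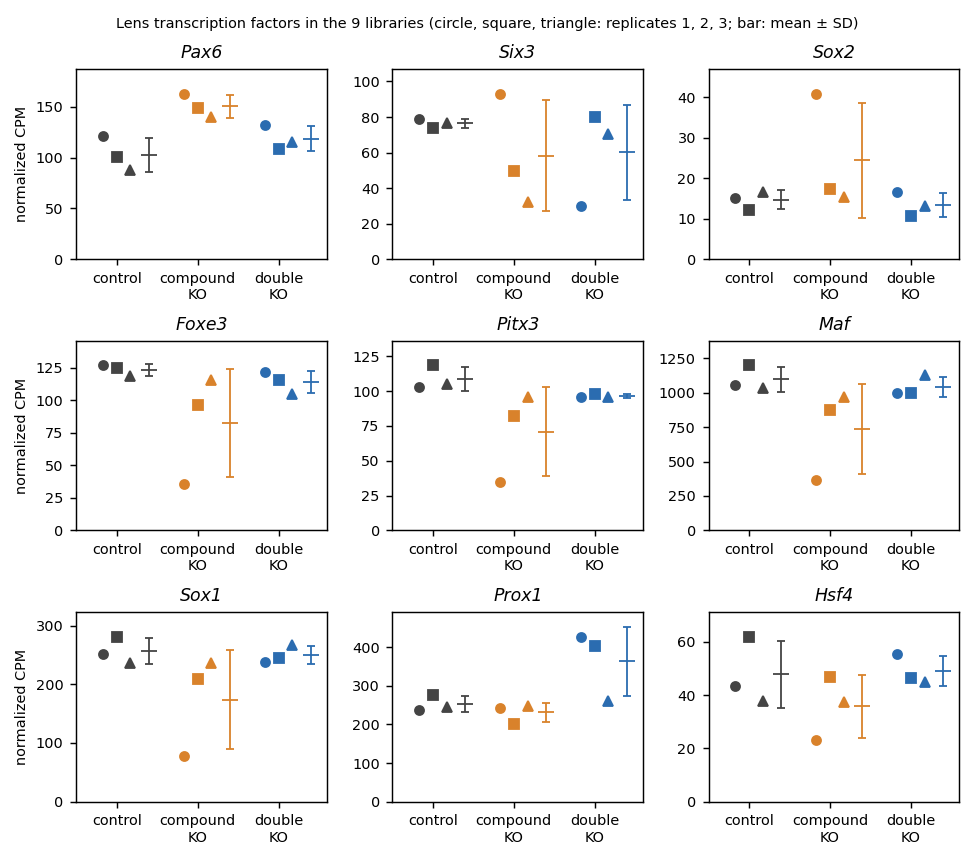
Normalized CPM of the 9 factors in every library, with genotype on the horizontal axis and a separate vertical axis from 0 for each factor. Circles, squares and triangles are replicates 1, 2 and 3, and the bars to their right give the mean ± SD (n = 3). Compound KO replicate 1 is the low circle for Foxe3 (36.0), Pitx3 (34.6), Maf (363.6), Sox1 (77.0) and Hsf4 (23.1) and the high circle for Sox2 (40.8).

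Pax6, the paired domain factor required from the lens placode onward, read 121.1, 100.2 and 88.0 normalized CPM in control replicates 1 to 3, 162.7, 149.0 and 139.8 in compound KO replicates and 132.4, 108.2 and 115.7 in double KO replicates. All 3 compound KO libraries lay above all control and all double KO libraries, while control and double KO libraries overlapped. The group means were 103 ± 16.7 in control, 150.5 ± 11.5 in compound KO and 119 ± 12.4 in double KO lenses (SD, n = 3). In compound KO relative to control lenses Pax6 had the smallest p of the factors, with a log2 fold change of 0.55 (SE 0.14, 95% interval 0.21 to 0.89, unadjusted p = 0.00748, adjusted p = 0.481 by limma), and 1.16% of all genes tested had a smaller p. It was not called. Without compound KO replicate 1 the log2 fold change was 0.49 (95% interval 0.11 to 0.88, adjusted p = 0.362 by limma), so the difference was nearly as large without that library. Between double KO and compound KO lenses Pax6 had a log2 fold change of -0.34 (SE 0.11, unadjusted p = 0.0203, adjusted p = 0.665 by limma), which was -0.28 without that library, and between double KO and control lenses 0.21 (95% interval -0.13 to 0.55, adjusted p = 0.695 by limma). The last interval holds values from 0.914-fold to 1.46-fold, and the value ran from 0.10 without control replicate 3 to 0.33 without control replicate 1.

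Pax6 is also expressed in the neural retina, and the neural retina markers differed between the same libraries. Their sum was 80.5, 26.2 and 75.1 in control, 482.1, 165.4 and 90.0 in compound KO and 117.9, 36.3 and 61.8 in double KO replicates, so that all compound KO libraries lay above all control libraries here too. Across the libraries, log2 Pax6 and the log2 sum of these markers had a Pearson's r of 0.79 over 9 libraries and 0.69 over 8 without compound KO replicate 1, points that share the library and its scaling. Beside the periocular mesenchyme markers r was 0.71 and 0.54. Their part in the Pax6 difference was not tested. Pax6os1, an antisense RNA whose span overlaps the first bases of Pax6 without sharing exon bases, was at 1.6 or less in every library.

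Six3, a homeodomain factor of the eye field that acts upstream of Pax6 in the presumptive lens, read 78.9, 74.0 and 76.5 in control, 92.9, 49.7 and 32.1 in compound KO and 29.8, 80.0 and 70.3 in double KO replicates. The 3 control libraries were close together, and the low values were those of compound KO replicate 3 and double KO replicate 1, followed by compound KO replicate 2. Both knockout groups therefore had a wide spread, 58.2 ± 31.3 in compound KO and 60.0 ± 26.6 in double KO beside 76.5 ± 2.45 in control lenses. The log2 fold change was -0.46 (SE 0.37, 95% interval -1.38 to 0.46, adjusted p = 0.756 by limma) between double KO and control lenses, an interval that runs from 0.384-fold to 1.37-fold. This value rested on double KO replicate 1, as it was -0.03 without that library, while it was -0.72 without replicate 2. The lens fiber sum was also lowest of the double KO libraries in replicate 1, and the part of that library's tissue content in its Six3 value was not tested.

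Compound KO replicate 1, the library with the most retinal markers, held the highest Six3 value. Without it Six3 was below control in both remaining compound KO libraries, with a log2 fold change of -0.92 (95% interval -1.43 to -0.41, unadjusted p = 0.00613, adjusted p = 0.264 by limma) in place of -0.52 (95% interval -1.44 to 0.40, adjusted p = 0.526), and it was not called under either. Without compound KO replicate 3 in its place, the value was -0.17 (adjusted p = 0.748 by limma), so it depended on which library was left out. Six3os1, the opposite strand RNA that shares 205 exon bases with Six3, read 35.5 to 56.1 in control, 43.0 to 58.3 in compound KO and 39.5 to 40.3 in double KO libraries, and it was not low where Six3 was. Whether strand was used when reads were assigned to the 2 genes is not known here. Tvp23b, which encodes a Golgi protein, was the gene most like Six3 over the 9 libraries (r = 0.945) and was low in the same 2 libraries, with 3.5 in compound KO replicate 3 and 3.2 in double KO replicate 1 beside 15.9 to 21.4 in the others.

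Sox2, the high mobility group factor of early lens and neural progenitors, read 15.2, 12.1 and 16.7 in control, 40.8, 17.3 and 15.3 in compound KO and 16.6, 10.6 and 13.1 in double KO replicates. Compound KO replicate 1 lay far above every other library, and the rest of the compound KO libraries lay among or just above the controls. In compound KO relative to control lenses the log2 fold change was 0.58 (SE 0.38, adjusted p = 0.506 by limma) with that library and 0.15 (95% interval -0.27 to 0.58, adjusted p = 0.719) without it. Between double KO and control lenses it was -0.13 (95% interval -0.61 to 0.35, adjusted p = 0.880 by limma). Sox2 followed the neural retina markers most closely among the factors, with r = 0.93 over 9 libraries and 0.88 over 8, and their part in the Sox2 values was not tested. Sox2ot, a transcript that spans Sox2 on the same strand without sharing exon bases, read 22.1 to 23.6 in control, 7.8, 15.9 and 30.5 in compound KO and 16.3, 14.4 and 77.7 in double KO replicates, with its highest value in double KO replicate 3, where Sox2 was at 13.1.

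Foxe3, the forkhead factor that keeps the lens epithelium proliferating, read 126.8, 124.8 and 118.3 in control, 36.0, 96.7 and 115.4 in compound KO and 121.6, 115.4 and 105.0 in double KO replicates. Every compound KO library was below every control library, by little in replicate 3 and most in replicate 1. Foxe3 overlapped between double KO and control lenses, with a log2 fold change of -0.11 (SE 0.07, 95% interval -0.28 to 0.05, adjusted p = 0.663 by limma), so that a change beyond 0.823-fold lay outside the interval. Between compound KO and control lenses the value was -0.73 (SE 0.44, adjusted p = 0.489 by limma) and -0.22 (95% interval -0.46 to 0.02, adjusted p = 0.451) without replicate 1.

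Pitx3, the homeodomain factor that is lost in the aphakia mouse, read 102.8, 118.5 and 105.0 in control, 34.6, 82.1 and 95.6 in compound KO and 95.8, 98.1 and 95.6 in double KO replicates. Its 3 double KO libraries were all below the 3 controls, against 8.04% of all genes, and it was the only factor among the 9 whose 6 Mafg-/- libraries, 34.6 to 98.1, all lay below the 3 control libraries, 102.8 to 118.5, a pattern that 4.27% of 14578 genes showed. The double KO libraries were close to each other, 96.5 ± 1.39 beside 109 ± 8.50 in control lenses (SD, n = 3). In double KO relative to control lenses the log2 fold change was -0.17 (SE 0.06, 95% interval -0.33 to -0.01, unadjusted p = 0.0434, adjusted p = 0.479 by limma), a 0.890-fold level with an interval of 0.796 to 0.995. It was not called, and 9.04% of all genes had a smaller p. With libraries scaled to their totals the value was -0.1 (unadjusted p = 0.164 by limma). Across the libraries, log2 Pitx3 ran opposite to the neural retina sum (r = -0.87, and -0.79 without compound KO replicate 1). It also ran opposite to the mesenchyme sum (-0.88 and -0.71), and the part of tissue content in the Pitx3 values was not tested. In compound KO relative to control lenses the log2 fold change of Pitx3 was -0.73 (SE 0.38, adjusted p = 0.481 by limma). Without replicate 1 it was -0.29 (95% interval -0.56 to -0.02, adjusted p = 0.404 by limma).

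Maf, the large Maf factor of fiber cells, read 1053.9, 1198.3 and 1035.6 in control, 363.6, 875.7 and 969.4 in compound KO and 999.5, 998.5 and 1127.1 in double KO replicates. The double KO libraries overlapped the controls, while all compound KO libraries lay below them. Between double KO and control lenses the log2 fold change was -0.07 (SE 0.08, 95% interval -0.28 to 0.13, adjusted p = 0.830 by limma), which places the level between 0.826-fold and 1.10-fold of the control. The compound KO value was -0.69 (SE 0.39, adjusted p = 0.482 by limma) and became -0.25 (95% interval -0.49 to -0.01, adjusted p = 0.424) without replicate 1.

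Mafa, a paralog of Maf with a lower level, read 12.8, 14.7 and 12.8 in control, 3.2, 6.7 and 7.6 in compound KO and 9.4, 7.6 and 7.2 in double KO replicates, so that all 6 Mafg-/- libraries were below all controls. In double KO relative to control lenses its log2 fold change was -0.68 (SE 0.12, 95% interval -0.98 to -0.37, unadjusted p = 0.00194, adjusted p = 0.175 by limma), and -0.82 (adjusted p = 0.165 by limma) between compound KO, without replicate 1, and control lenses. It was not called. Maff, the small Maf that was left intact, read 3.2 to 5.1 in control and 4.1 to 5.2 in double KO libraries (log2 fold change 0.24, adjusted p = 0.739 by limma). Mafa and Maff are named here after their values were seen.

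Sox1, which is required for gamma crystallin expression in fibers, read 252.3, 281.1 and 236.7 in control, 77.0, 209.0 and 235.6 in compound KO and 238.3, 245.2 and 267.1 in double KO replicates. The double KO libraries lay inside the control range. The log2 fold change between them was -0.03 (SE 0.08, 95% interval -0.23 to 0.16, adjusted p = 0.930 by limma), 0.976-fold with an interval of 0.850 to 1.12, and it was 0.04 when libraries were scaled to their totals, so that no direction can be given. In compound KO lenses it was -0.71 (SE 0.43, adjusted p = 0.493 by limma), and -0.21 (95% interval -0.46 to 0.05, adjusted p = 0.494) without replicate 1.

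Prox1, the homeodomain factor of fiber elongation and cell cycle exit, read 237.2, 275.6 and 243.9 in control, 243.5, 201.4 and 247.9 in compound KO and 427.1, 402.2 and 260.6 in double KO replicates. Double KO replicates 1 and 2 were the highest of all libraries, whereas replicate 3 lay within the control range, and the SD of the group was accordingly wide, 363 ± 89.8 beside 252 ± 20.5 in control and 231 ± 25.7 in compound KO lenses. With double KO relative to control lenses, Prox1 had the largest log2 fold change of the 9 factors, 0.49 (SE 0.20, 95% interval 0.00 to 0.99, unadjusted p = 0.0495, adjusted p = 0.500 by limma), and 10.3% of all genes had a larger absolute value. It was not called, and was 0.72 (adjusted p = 0.102 by limma) without double KO replicate 3 and 0.36 without replicate 1, the library with the lower fiber sum and higher mesenchyme and muscle sums, whose part was not tested. All double KO libraries lay above all compound KO libraries, with a log2 fold change of 0.62 (SE 0.21, unadjusted p = 0.0278, adjusted p = 0.665 by limma), and 0.67 without compound KO replicate 1. Of the 9 factors Prox1 was the one for which compound KO replicate 1 lay within the range of the others, and with and without that library the compound KO value was -0.13 and -0.17. The direction of that small difference turned to 0.13 when libraries were scaled to their totals. Prox1os, an opposite strand RNA that shares 976 exon bases with Prox1, read 54.5, 42.7 and 30.3 in control, 10.3, 31.9 and 47.6 in compound KO and 29.0, 41.4 and 47.1 in double KO replicates, and was not high in the libraries in which Prox1 was.

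Hsf4, the heat shock factor of the late fiber program, read 43.5, 61.9 and 37.7 in control, 23.1, 46.8 and 37.3 in compound KO and 55.3, 46.5 and 44.9 in double KO replicates. All 3 genotypes overlapped. The log2 fold change was 0.06 (SE 0.20, 95% interval -0.42 to 0.55, adjusted p = 0.953 by limma) between double KO and control lenses and changed sign when control replicate 3 or double KO replicate 1 was left out. In compound KO relative to control lenses it was -0.43 (95% interval -1.19 to 0.33, adjusted p = 0.525 by limma), and -0.16 (adjusted p = 0.815) without compound KO replicate 1. Between the knockouts it was 0.49, and 0.22 without that library.

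**Figure D2:**
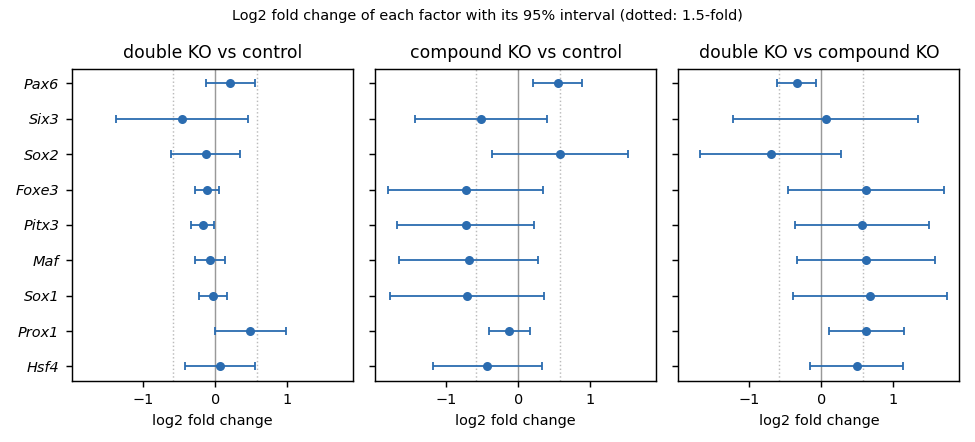
Log2 fold change of each factor on the horizontal axis in the 3 comparisons, with points for the estimate and bars for the 95% interval from limma, and dotted lines at 1.5-fold. In double KO against control lenses the intervals of Foxe3, Pitx3, Maf, Sox1, Pax6 and Hsf4 lie inside the dotted lines, whereas in compound KO against control lenses those of Foxe3, Pitx3, Maf and Sox1 are wide, with standard errors of 0.38 to 0.44.

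The precision differed between the comparisons. Between double KO and control lenses the standard errors ran from 0.06 (Pitx3) to 0.37 (Six3). For Foxe3, Pitx3, Maf, Sox1, Pax6 and Hsf4 a change of more than 1.5-fold lay outside the 95% interval of this fit. With all 9 libraries in 1 fit, Foxe3, Pitx3, Maf and Sox1 had the same values but unadjusted p of 0.769, 0.623, 0.834 and 0.928 by limma. Their intervals are wider there, and this limit is given for the fit of the 2 genotypes only. With compound KO relative to control lenses, 0 of the 9 factors were called, against 0.0% of 14348 genes, and 1 factor, Pax6, had an unadjusted p of at most 0.05, against 9.3% of all genes. There the median log2 fold change of the factors was -0.52 beside 0.02 over all genes, and it was -0.21 beside 0.01 without compound KO replicate 1. With all libraries 4 factors (Foxe3, Pitx3, Maf and Sox1) had all compound KO libraries below all controls, against 11.7% of all genes, and 1 (Pax6) had all above, against 12.2%. Without compound KO replicate 1, 5 factors (the same 4 and Six3) lay below, against 15.5% of all genes, and Pax6 lay above, against 16.1%, with 0 factors called and 0.0926% of all genes called. Adjusted p-values of the factors were then 0.264 to 0.815.

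With double KO relative to compound KO lenses, 0 of the 9 factors were called, against 0.0139% of 14402 genes, and 2 (Pax6 and Prox1) had an unadjusted p of at most 0.05, against 4.87%. Prox1, Maf and Sox1 had all double KO libraries above all compound KO libraries, against 8.17% of all genes, and Pax6 had them all below, against 7.39%. For Maf and Sox1 the log2 fold changes were 0.62 (SE 0.39) and 0.68 (SE 0.43), and without compound KO replicate 1 both were 0.17, with adjusted p = 0.83 by limma. The factors that did not overlap were the same without that library, against 11.7% of all genes above and 10.6% below, and 0 of the 9 factors were called, against 0.0425% of all genes. The compound and double KO comparisons with control share the same 3 control libraries.

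The factors differed in their values in compound KO replicate 1. Its value over the median of the other 8 libraries was 0.308 for Foxe3, 0.319 for Sox1, 0.357 for Pitx3, 0.357 for Maf and 0.505 for Hsf4, in each case the lowest of the 9 libraries. It was 2.68 for Sox2, 1.37 for Pax6 and 1.29 for Six3, in each case the highest, and 0.958 for Prox1. Of the factors 55.6% were thus lowest in this library, against 28.7% of all genes with a mean of at least 1. The share that was highest, 33.3%, was near the 33.8% of all genes. Pax6, Six3 and Sox2 are also expressed in the developing neural retina. The median ratio of the 12 lens fiber markers was 0.366, with 10 of them lower than in every other library, and that of the 7 lens epithelium markers was 0.634. For the 9 neural retina markers it was 6.5, all 9 being higher than in every other library, for the 10 periocular mesenchyme markers 15.6, for 8 skeletal muscle markers 19.3, for 7 retinal pigment epithelium markers 47.6 and for 3 surface and corneal epithelium markers 81.7. When libraries were scaled to their totals, the ratios were 0.443 for Foxe3, 0.439 for Sox1, 0.491 for Pitx3, 0.502 for Maf, 3.78 for Sox2 and 2.0 for Pax6, and that of Prox1 was 1.38. The part of other tissues in these values was not tested.

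**Figure D3:**
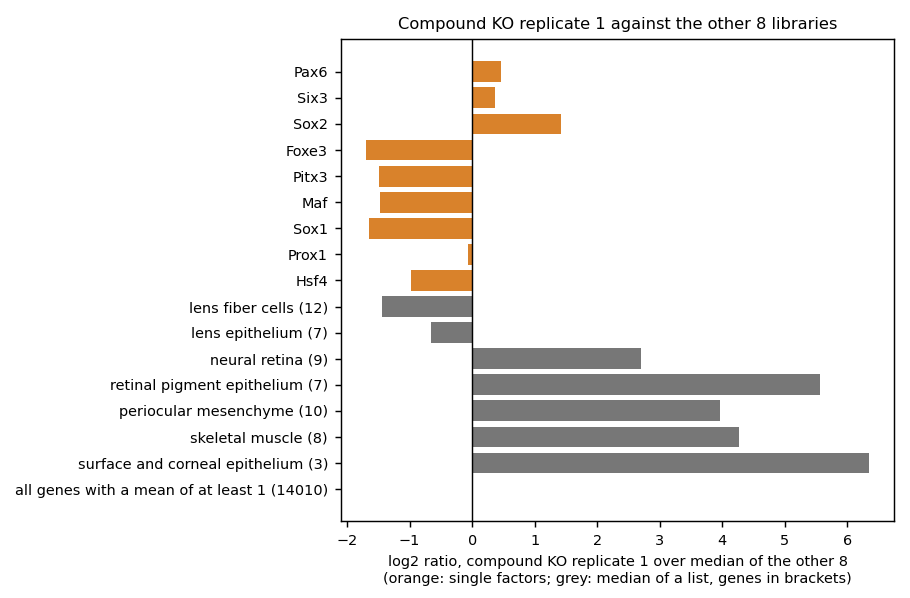
Log2 of the value in compound KO replicate 1 over the median of the other 8 libraries, for each factor (orange) and as the median over marker lists (grey, with the number of genes in brackets). Foxe3, Pitx3, Maf and Sox1 lie between -1.70 and -1.48, beside -1.45 for the lens fiber list, and Sox2, Pax6 and Six3 lie above 0 on the side of the neural retina list (2.70).

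Foxe3, Pitx3, Maf and Sox1 varied together across the libraries. Over the 9 libraries Pearson's r of log2 values was 1.0 for Maf with Sox1, 0.99 for Maf with Pitx3 and 0.97 for Maf with Foxe3. These values rest in part on compound KO replicate 1, as over the other 8 libraries they were 0.97, 0.85 and 0.54. Sox2 ran opposite to Sox1 (r = -0.95, and -0.65 over 8 libraries), and Pax6 opposite to Pitx3 (-0.70 and -0.76). Prox1 and Hsf4 had r of 0.39 with each other and 0.42 over 8 libraries. The points of each correlation share the library, its tissue content and its scaling, and each r is given as a description.

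**Figure D4:**
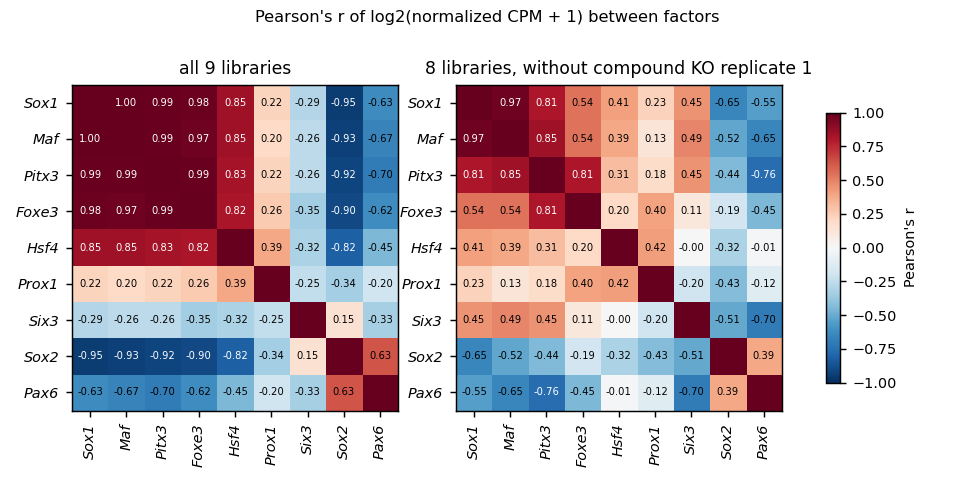
Pearson's r of log2(normalized CPM + 1) between factors, over all 9 libraries on the left and over 8 libraries without compound KO replicate 1 on the right, on a color scale from -1 (blue) to 1 (red). The block of Sox1, Maf, Pitx3 and Foxe3 is at 0.97 or above on the left, whereas on the right Maf with Sox1 stays at 0.97 and Foxe3 with Maf is at 0.54.

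The genes nearest to each factor were sought among 8151 genes with a mean of at least 10, for which the median of the best r was 0.964 over the 9 libraries. Here r is given over the 9 libraries and then over the 8 without compound KO replicate 1. Maf was nearest to Sox1 (0.998 and 0.974) and then to Lim2, a membrane protein of fiber cells (0.994 and 0.905), and Sox1 was nearest to Maf and to Rbm24, an RNA-binding protein of lens and muscle (0.996 and 0.921). Pitx3 was nearest to Carhsp1 (0.998 and 0.965) and Jag1, a Notch ligand of the lens (0.997 and 0.969), and Foxe3 to Crygb, a gamma crystallin (0.995 and 0.891), and Cpeb2 (0.994 and 0.871). Sox2 was nearest to Ier5 (0.992 and 0.957) and Prnp (0.991 and 0.951), and Hsf4 to Ighmbp2 (0.971 and 0.911) and Nelfe (0.964 and 0.893). Pax6 was nearest to Lamb2, a laminin chain (0.985 and 0.981), and Zfp638 (0.958 and 0.953). Prox1 with Alad (0.926 and 0.937) and Prmt6 (0.909 and 0.911) and Six3 with Tvp23b (0.945 and 0.962) and Mien1 (0.909 and 0.893) had no gene as near over 9 libraries as that of the median gene. When genes were ranked over the 8 libraries, the nearest gene was the same for Pax6, Sox1 and Maf, was Jag1 in place of Carhsp1 for Pitx3, and was another gene for Sox2, Prox1, Hsf4, Foxe3 and Six3.

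The levels were also set against Lim2, a measure chosen after the values were seen and for its likeness to Maf, so that nothing is read from it for Maf. Pitx3 per 100 units of Lim2 ran from 2.8 to 3.3, and its Mafg-/- libraries overlapped the controls on this scale. As Pitx3 varied together with Maf (r = 0.99 over 9 libraries), nothing is read from that overlap either. Mafa was 0.410, 0.390 and 0.396 in control and 0.213 to 0.313 in the 6 Mafg-/- libraries, so that it stayed below. Prox1 was 14.2 and 13.0 in double KO replicates 1 and 2 and 7.7 in replicate 3, beside 7.31 to 7.61 in control. In compound KO replicates 1 to 3 it was 21.2, 6.86 and 7.97, so the highest ratio was not in a double KO library. A ratio of this kind shows unequal change of the 2 genes and not which of them changed.

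Other genes of the lens regulatory network were taken from fixed lists. Of 38 other regulators with lens roles, 37 had an entry, and 0 were called in any of the 3 comparisons by limma. At an unadjusted p of at most 0.05, E2f2 and Rxra were among the genes with higher values and Eya1 had lower values in double KO than in control lenses, with log2 fold changes of 0.79, 0.42 and -0.39, and the median over the list was 0.03. In all 3 genes of the list were higher and 1 was lower at that p, against 9.97% of all genes in either direction. Between compound KO and control lenses there were 5 higher and 1 lower at that p, against 9.3% of all genes, with a median of 0.11 (0.07 without compound KO replicate 1), and among them Six6, Sox11 and Mab21l2 are also retinal genes. In compound KO replicate 1, 20 of the 37 were higher than in every other library, against 33.8% of all genes. Of the 22 paralogs of the factors, 11 had an entry, 10 or 11 were tested and 0 were called in any comparison.

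Of 25 genes reported as targets of these factors, mostly crystallins and fiber proteins, 24 had an entry, and 0 were called in any comparison by limma. In double KO against control lenses their median log2 fold change was -0.20, beside -0.07 for the factors and 0.01 for all genes. Bfsp1, a protein of the beaded filament, had -0.77 (adjusted p = 0.131 by limma), Cryab, a small heat shock protein crystallin, -0.70 (adjusted p = 0.143), and Crygd, Crygf and Dnase2b, the nuclease of fiber denucleation, -0.46, -0.31 and -0.34, each at an unadjusted p of at most 0.05. Cdkn1c, a cell cycle inhibitor, was the only target higher at that p, with 0.79, and 9.97% of all genes passed that p in either direction. In compound KO against control lenses the median was -0.63, with 13 of 24 targets below the controls in all libraries, against 11.7% of all genes. Without compound KO replicate 1 the median was -0.22, with 13 of 24 below, against 15.5% of all genes. In compound KO replicate 1, 19 of the 24 had their lowest value, against 28.7% of all genes with a mean of at least 1. The list was drawn from knowledge of the field and not from binding data of these lenses.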

How the data were processed

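Libraries were grouped by their titles, control, compound or double, of which only the control titles spell out the alleles. The alleles of compound and double KO lenses are those given in the methods. The authors trimmed reads with Trimmomatic, aligned them to mm39 with HISAT2, quantified transcripts with StringTie and used edgeR, per the labels and the methods. The deposited values are a signal: CPM, rounded to 1 decimal, which the authors multiplied by library factors for composition, as the totals differ while their geometric mean is 1000012. Read counts were not used here, so the depth is unknown and precision is given by the spread between libraries. A count model, planned for counts, was therefore not run.

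The values were tested with limma 3.58.1 in R 4.3.3 on log2(value + 1), with eBayes set to follow the trend of variance with level, in a fit of its own for each comparison of genotypes. Fold changes are on this scale, which understates changes of low genes. Each fit took the entries with a symbol that reached 1 in 2 or more of the 6 libraries. P-values were two-sided and adjusted by the Benjamini-Hochberg method over all of them, and a call needed an adjusted p of 0.05 or less together with a 1.5-fold difference. On simulated data of 14122 genes for double KO against control lenses, the test called 70 of 94 genes changed by 1 log2 unit, 99 of 106 changed by 2 and 11 unchanged genes. For compound KO against control lenses (14348 genes) it called 51 of 102 and 77 of 98, and for double KO against compound KO lenses (14402 genes) 49 of 92 and 79 of 108. The simulated noise was normal, independent between genes and libraries, and had the same SD in both groups of a gene. Changes were placed only in genes above a set level. No simulated library stood apart as compound KO replicate 1 did, so these counts cannot be taken as the power of the real comparisons. The factors and all lists were chosen with earlier results of these data known. Genes named are the 9 factors, Mafg and Mafk, called genes of the lists, the 2 genes nearest to each factor by Pearson's r, neighbouring noncoding RNAs and, chosen after their values were seen, Mafa, Maff and some listed genes at an unadjusted p of 0.05 or less. Exon lengths and positions are from GENCODE M39 on GRCm39, in which 14431 of 15803 symbols (91.3%) were found, and promoters from RefSeq. Alternatives were 2 other scalings, 2 other filters, a pseudocount of 0.1, a fit of all 9 libraries, a replicate block, summed entries, other call rules and leaving out each library.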

Additional observations from a re-analysis of the deposited data

How the results depend on the processing

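Of 378 values of the 9 factors recomputed under the alternatives, 0 were called and 10 changed sign, all of them small differences, and 22 of the 27 pairs of factor and comparison had no change of sign. Scaling to library totals moved the median of all genes from 0.01 to 0.07 between double KO and control. It moved it from 0.02 to 0.24 between compound KO and control, and from -0.01 to -0.17 between the 2 knockouts. That scaling gave 0.04 for Sox1 between double KO and control, 0.13 for Prox1 between compound KO and control and -0.13 for Six3 between the 2 knockouts. Leaving out libraries gave 0.03 for Sox1 (range over libraries -0.09 to 0.03), 0.02 for Sox2 (-0.28 to 0.02) and -0.09 and -0.03 for Hsf4 (-0.09 to 0.26) between double KO and control lenses, and -0.29, -0.20 and -0.11 for Six3 between the 2 knockouts (-0.29 to 0.49).

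The 51 genes called between double KO and control lenses became 21 with all 9 libraries in 1 fit and 10 with the replicate number as a block. They became 400 at an unadjusted p of at most 0.05 together with a 1.5-fold difference. When a library was left out they were 22 to 47, the fewest without control replicate 3. The 0 called between compound KO and control lenses became 2 with all 9 libraries and 766 at that unadjusted p and 1.5-fold. When a library was left out they were 0 to 13, the most without compound KO replicate 1. The 2 called between double KO and compound KO lenses became 0 with a value of at least 1 required in every library and 1 with a pseudocount of 0.1. They became 5 with all 9 libraries, 0 with the block and 440 at the same unadjusted p and 1.5-fold. When a library was left out they were 1 to 6. Where an arm kept 2 libraries, the spread was pooled over both arms. The cause of these changes was not tested. Libraries with the same replicate number correlated by -0.106 to 0.216 after removal of group means, with 2 of 9 pairs above 0.1, so the numbers were not treated as pairs, and with the block 0 factors were called in each comparison. Unknown depth limits what can be said of Mafk, Maff and other low genes.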
